A study of Mus musculus with 4 samples.

Results

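The genes described here encode secreted mediators through which regulatory T (Treg) cells suppress other immune cells or support tissue repair. The set lists 8 genes: Il10, Ebi3, Il12a, Fgl2, Areg, Lgals1, Lgals3 and Penk. A gene was represented by the probe set annotated with exactly 1 symbol that had the highest mean over the arrays. By that rule 7 of the 8 genes had a probe set, out of 19938 genes represented in all, and each of the 7 had only 1. Areg, an epidermal growth factor (EGF) family ligand linked to tissue repair by Treg cells, was not named by the annotation used here and has no value below. Of the 7, 6 lay above the filter on dim genes and were tested among 13956 genes. Il12a lay below it.

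Foxp3 is the transcription factor that defines Treg cells, a CD4 T cell lineage that restrains immune responses. CYLD is a deubiquitinase that limits NF-kB signalling. The measurements compare 2 arrays of CYLD KO Treg cells (genotype Cyld fl/fl with Foxp3-yfp-cre) with 2 arrays of WT Treg cells (Cyld+/+ with Foxp3-yfp-cre), all sorted for yellow fluorescent protein (YFP+). Both genotypes are on C57Bl6 at 6 to 8 weeks of age and carry the Cre recombinase that Foxp3 drives. Deletion is therefore aimed at cells that have expressed Foxp3, and deletion in other cells was not tested. Some labels name spleen and lymph nodes as the source, others spleen alone. Nothing in them says whether replicates came from separate mice or whether mice were pooled. The p-values therefore rest only on the spread between these samples, averaged over all tested genes, and that spread may be technical.

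Treg mediators act in several ways. Interleukin-10 (IL-10) restrains antigen-presenting cells, and EBI3 pairs with the p35 subunit encoded by Il12a to form IL-35, a cytokine of mouse Treg cells, or with the product of Il27 to form IL-27. FGL2 is a fibrinogen-like protein that inhibits dendritic cells through Fc gamma receptors. Galectins bind glycans on surface proteins, and galectin-1 can restrain or kill effector T cells. Penk encodes proenkephalin, the precursor that is cut into the opioid pentapeptides called enkephalins.

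Each array measured 35557 probe sets with median intensities of 98.98 to 102.9 in the knockout and 100.7 to 104.8 in WT, so the deposited arrays share a scale; 2 arrays per group limit the precision. Cyld had intensities of 284 and 218 in CYLD KO cells, against 524 and 502 in WT cells (log2 fold change -1.04, limma adjusted p = 8.96e-08). Where its probe set lies relative to the deleted part was not tested. Foxp3 had intensities of 1697 and 1553 in CYLD KO cells and 2016 and 1881 in WT cells. Of 6 Treg identity markers, 0 passed the test in limma. Il2ra was the 1 marker at an unadjusted p under 0.05 (log2 fold change -0.45, limma adjusted p = 0.0831). Its intensities were 1914 and 1810 in CYLD KO cells and 2579 and 2499 in WT cells. Both CYLD KO arrays lay below both WT arrays for 2 of the 6 markers, Il2ra and Foxp3, and above them for 1. CYLD KO replicate 2 stood apart from the other 3 arrays in sex-linked genes, with the Y-linked gene Kdm5d at 127 there and at 268 to 275 on the others. Xist, also sex-linked, was at 2321 there and at 1306 to 1630 on the others. Xist and Kdm5d thus both lay above the filter intensity of 77.4 on every array. Whether samples pooled mice of both sexes was not tested. In limma Xist was called higher in CYLD KO cells (adjusted p = 0.0291). Kdm5d (0.0160) and Eif2s3y (0.00243) were called lower, and Uty did not pass (0.546). The part of sex in the mediator differences was not tested. CYLD KO replicate 2 also had the higher proliferation signal. The summed intensities of 13 proliferation genes were 12158 on replicate 2 and 8016 on replicate 1, against 6294 and 6096 in WT. Each count of the mediator genes is therefore also given without that array.

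Promoter windows were available from RefSeq (GRCm38.p6) for 5 of the 8 genes, reaching from 250 bases before the transcription start to 50 bases after it. Ebi3, Fgl2 and Lgals3, which were all higher in CYLD KO cells (below), are shown because they are the risen genes with a window; the 250 bases before the start are printed 5′ to 3′ on the plus strand, with motif matches in capitals. They lie at chr17:55952373-55952622 for Ebi3, chr5:21372423-21372672 for Fgl2 and chr14:47373610-47373859 for Lgals3.
Ebi3: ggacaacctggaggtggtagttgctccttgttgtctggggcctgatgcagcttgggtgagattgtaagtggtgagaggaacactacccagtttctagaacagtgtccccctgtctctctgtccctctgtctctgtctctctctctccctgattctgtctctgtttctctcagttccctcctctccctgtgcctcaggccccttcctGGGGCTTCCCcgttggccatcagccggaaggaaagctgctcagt
Fgl2: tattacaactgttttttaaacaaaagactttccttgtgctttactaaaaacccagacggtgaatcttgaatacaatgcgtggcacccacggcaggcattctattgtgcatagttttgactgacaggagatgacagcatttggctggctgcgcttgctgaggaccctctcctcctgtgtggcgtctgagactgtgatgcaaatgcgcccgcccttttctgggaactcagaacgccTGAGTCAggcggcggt
Lgals3: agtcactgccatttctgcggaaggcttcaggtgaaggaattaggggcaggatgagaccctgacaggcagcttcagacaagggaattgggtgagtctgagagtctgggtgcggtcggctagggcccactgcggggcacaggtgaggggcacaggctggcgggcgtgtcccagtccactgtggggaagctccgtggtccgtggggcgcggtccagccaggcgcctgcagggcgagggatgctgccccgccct
The windows were searched on both strands for the NF-kB consensus in the form that requires A or T at the sixth of its 10 letters, for the AP-1 site TGANTCA, for the cyclic AMP response element TGACGTCA and for its core TGACG, which lies within the full element. In Ebi3 the capitals mark the NF-kB match GGGGCTTCCC, whose first base is at position -44 from the start, and 4.51% of all 32851 windows hold a match to that consensus. In Fgl2 they mark the AP-1 match TGAGTCA at position -16, a motif found in 7.81% of windows. The Lgals3 window holds none of these motifs. With any base allowed at the sixth letter of the NF-kB consensus, a form added after the windows were seen, it holds GGGAAGCTCC at position -70, left in lower case above. The Ebi3 window also holds GGGGCCCTCC in that form at position 15, after the start, and 8.46% of windows match it. The windows of Il12a hold none of the motifs in either form. That of Areg, which has no value here, holds TGACGTCA at position -61 and no NF-kB or AP-1 match. These matches describe letters only, and binding of a factor was not measured.

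The comparison asks how loss of CYLD in Treg cells goes along with the levels of the mediator transcripts. In CYLD KO cells 5 of the 6 tested genes were higher: Penk, Lgals1, Fgl2, Ebi3 and Lgals3. Penk showed the widest difference, 3.15-fold, and the other 4 lay between 1.48-fold and 1.91-fold. Il10 did not pass the test, and 0 of the 6 were lower in limma (0 also at an unadjusted p under 0.05). Of all 13956 genes tested, 4.79% were called higher, 3.50% lower and 8.30% in either direction. The median log2 fold change was 0.70 over the 6 genes and -0.02 over all genes tested. Without CYLD KO replicate 2, 4 of the 6 genes were called higher, without WT replicate 1 it was 3 and without WT replicate 2 it was 2, Penk and Lgals1. The genes were chosen with earlier results of these data known, so the share of called genes among them describes the set and is not independent evidence.

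**Figure D1:**
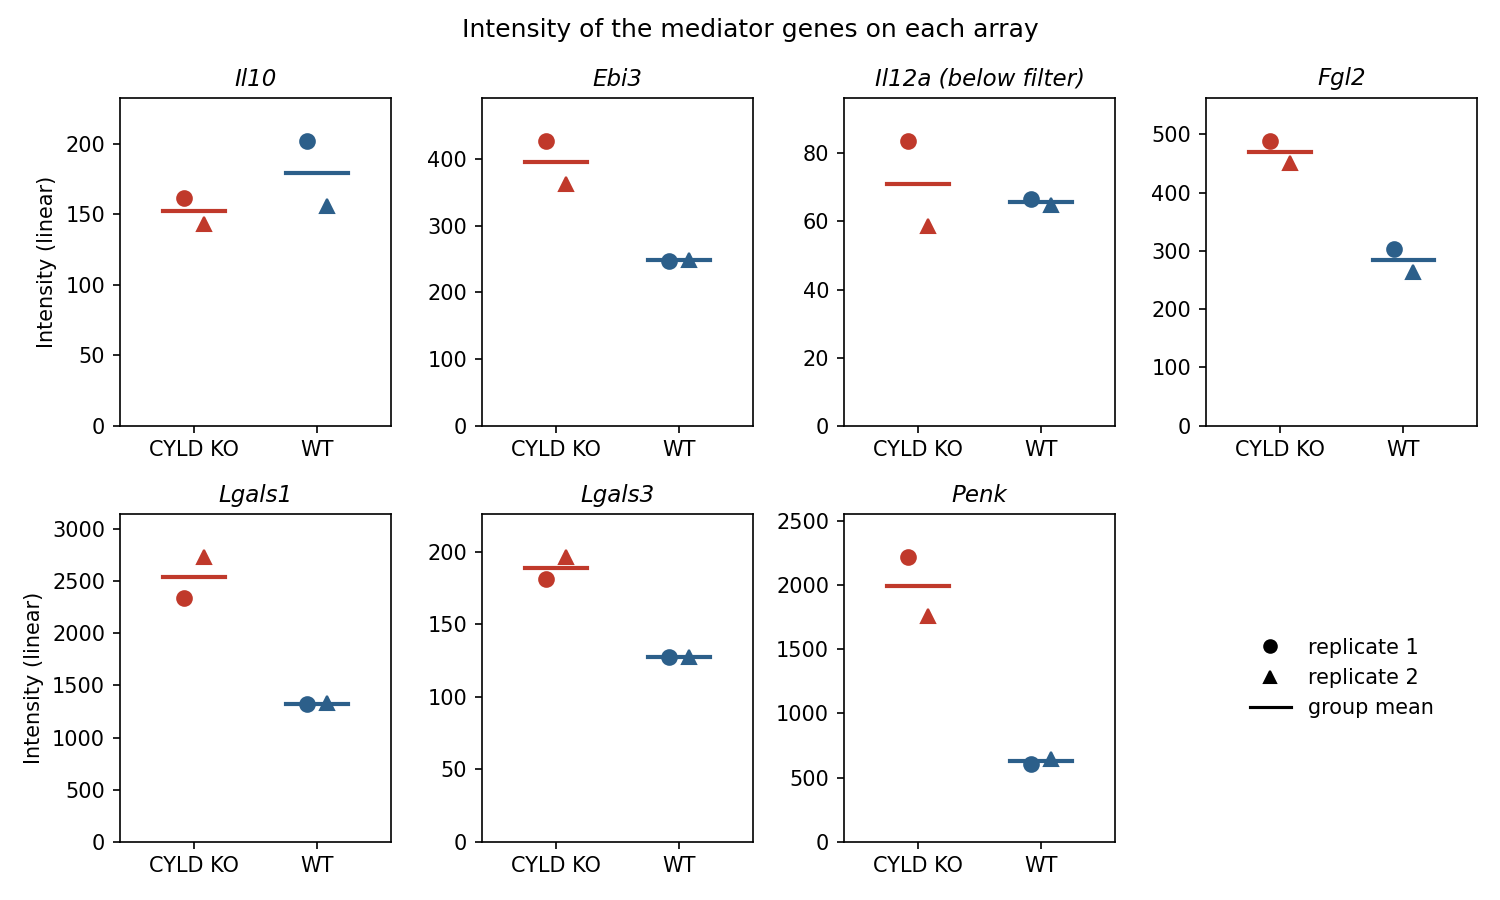
Intensity (linear scale, axes from 0) of the 7 mediator genes with a probe set on each array, CYLD KO left and WT right; points are replicate 1 (circle) and replicate 2 (triangle) and lines are group means (n = 2). For Ebi3, Fgl2, Lgals1, Lgals3 and Penk both CYLD KO arrays lie above both WT arrays, while for Il10 and Il12a the groups overlap.

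Penk, the proenkephalin gene, had intensities of 2216 and 1758 in CYLD KO cells, against 609 and 646 in WT cells. Both knockout arrays were far above both WT arrays, and the gap between the groups exceeded the spread within either. The means were 1987 ± 324 in the knockout and 627 ± 26.1 in WT (SD, n = 2 each). The log2 fold change was 1.65 ± 0.17 (SE), with a 95% interval of 1.32 to 1.99 and a limma adjusted p = 7.78e-20, the 34th largest rise among the 669 genes called higher. With any 1 array left out it remained between 1.49 and 1.82 and past the threshold each time.

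The enzymes that cut or degrade opioid peptides and the opioid receptors were followed as a list of 12 genes. Of these 7 were tested, 2 higher and 0 lower (3 and 0 at an unadjusted p under 0.05). Cpd, a carboxypeptidase of the secretory pathway that trims propeptides, had intensities of 725 and 722 in CYLD KO cells and 420 and 394 in WT cells (log2 fold change 0.83, limma adjusted p = 5.09e-05). Anpep, the cell-surface aminopeptidase N that breaks down enkephalins, had 104 and 134 in CYLD KO cells and 63.2 and 63.1 in WT cells (log2 fold change 0.89, limma adjusted p = 9.19e-06). Both WT values of Anpep lay under the filter, which corresponds to an intensity of 77.4, so it entered the test only through its knockout level, and its fold is a rough value. With 1 array left out the log2 fold change ran from 0.78 to 0.87 for Cpd and from 0.70 to 1.07 for Anpep. The filter was not applied again in these fits. Furin, a proprotein convertase, had 507 and 480 in CYLD KO cells and 562 and 499 in WT cells and did not pass. Of the receptors, the delta-opioid receptor gene Oprd1, a receptor for enkephalins, had 96.4 and 105 in CYLD KO cells and 80.9 and 107 in WT cells, with overlapping groups. Of the other opioid precursor genes, Pdyn and Pomc lay below the filter and Pnoc did not pass (limma adjusted p = 0.916).

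Lgals1, which encodes galectin-1, had intensities of 2339 and 2730 in CYLD KO cells, against 1317 and 1332 in WT cells. The groups did not overlap, and the WT arrays were nearly equal. The log2 fold change was 0.93 ± 0.17 (SE), with a 95% interval of 0.60 to 1.26 and a limma adjusted p = 2.70e-06. It lay between 0.82 and 1.04 with 1 array left out and passed each time.

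Lgals3, which encodes galectin-3, a galectin abundant in macrophages and activated lymphocytes, had intensities of 181 and 196 in CYLD KO cells, against 128 and 127 in WT cells. The groups again did not overlap, but this was the smallest of the rises called in the set. Its log2 fold change was 0.56 ± 0.17 (SE), with a 95% interval of 0.23 to 0.89 and a limma adjusted p = 0.0155. The call was lost without CYLD KO replicate 2 (adjusted p = 0.0706), without WT replicate 1 (0.264) and without WT replicate 2 (0.235).

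Among the other galectin genes, 5 were tested, 1 was higher and 0 were lower in limma (0 lower at an unadjusted p under 0.05). The gene called was Lgalsl, a galectin-related gene, with intensities of 376 and 378 in CYLD KO cells and 246 and 283 in WT cells (log2 fold change 0.51, limma adjusted p = 0.0343), and it did not pass without either WT array or without CYLD KO replicate 2. Lgals9, the galectin-9 gene, had 568 and 625 in CYLD KO cells and 788 and 675 in WT cells, a log2 fold change of -0.29 that was not past the threshold (limma adjusted p = 0.331). Lgals8 did not pass either.

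Genes for surface proteins that galectins bind, and for enzymes that shape the glycans, made up a list of 9 tested genes. Of these 3 were lower and 0 higher (4 lower and 0 higher at an unadjusted p under 0.05), with a median log2 fold change of -0.01. Cd7, a T cell surface receptor of galectin-1, had intensities of 226 and 266 in CYLD KO cells and 407 and 379 in WT cells (log2 fold change -0.68, limma adjusted p = 0.00190). St6gal1, whose sialyltransferase can cap glycans against galectin-1 binding, had 791 and 793 in CYLD KO cells and 1207 and 1094 in WT cells (log2 fold change -0.54, limma adjusted p = 0.0234). Mgat4a, a glycan-branching enzyme, had 116 and 115 in CYLD KO cells and 170 and 164 in WT cells (log2 fold change -0.53, limma adjusted p = 0.0255). For each of the 3 genes the groups did not overlap, yet Cd7, St6gal1 and Mgat4a did not pass without WT replicate 1 or without WT replicate 2, and Mgat4a also did not pass without CYLD KO replicate 2 (adjusted p = 0.0562). Ptprc, which encodes CD45, had 1368 and 1039 in CYLD KO cells and 1646 and 1447 in WT cells and did not pass. Both CYLD KO arrays lay below both WT arrays in 4 of these 9 genes and in 26.2% of all tested genes.

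Ebi3, the subunit that IL-35 and IL-27 share, had intensities of 428 and 363 in CYLD KO cells, against 247 and 249 in WT cells. Both knockout arrays were above both WT arrays, which differed from each other by less than the knockout arrays did. The log2 fold change was 0.67 ± 0.17 (SE), with a 95% interval of 0.334 to 0.999 and a limma adjusted p = 0.00230. Without WT replicate 1 the adjusted p was 0.117 and without WT replicate 2 it was 0.0992, while the size of the difference stayed at 0.66 and 0.67.

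Il12a, the partner of EBI3 in IL-35, had intensities of 83.7 and 58.6 in CYLD KO cells, against 66.7 and 64.8 in WT cells. The knockout arrays lay on either side of the WT arrays, and the mean of the probe set was below the filter. Its log2 fold change was 0.09, and with no filter the limma adjusted p was 0.845. Il27, the partner of EBI3 in IL-27, had 146 and 121 in CYLD KO cells and 143 and 136 in WT cells and did not pass (limma adjusted p = 0.869). Il12b and Il23a, the other subunit genes of the family, did not pass either.

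Of 6 tested receptor genes for IL-10 and the IL-12 family, 1 was higher and 1 lower. At an unadjusted p under 0.05, 1 was higher and 2 were lower, and the median log2 fold change was 0.07. Il6st encodes gp130, a signalling chain of the IL-27 and IL-35 receptors, and had intensities of 1062 and 1016 in CYLD KO cells and 1891 and 1970 in WT cells (log2 fold change -0.89, limma adjusted p = 8.34e-06). It passed without each array in turn. Il12rb1, a chain of the IL-12 and IL-23 receptors, had 532 and 532 in CYLD KO cells and 382 and 374 in WT cells (log2 fold change 0.49, limma adjusted p = 0.0459) and did not pass with any 1 array left out. Il27ra, the ligand-specific chain of the IL-27 receptor, had 1646 and 1627 in CYLD KO cells and 1342 and 1292 in WT cells, separate groups that did not pass the test (limma adjusted p = 0.286).

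Of 7 tested JAK and STAT pathway genes 1 was lower and 0 higher (2 lower and 2 higher at an unadjusted p under 0.05). This was Socs3, an inhibitor of signalling through gp130, with intensities of 199 and 209 in CYLD KO cells and 319 and 301 in WT cells (log2 fold change -0.60, limma adjusted p = 0.00811). Socs3 did not pass without WT replicate 1 (adjusted p = 0.279) or WT replicate 2 (0.127).

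Il10 had intensities of 161 and 143 in CYLD KO cells, against 202 and 156 in WT cells. The groups overlapped, and the WT arrays differed from each other by 0.37 on the log2 scale. The log2 fold change was -0.22 ± 0.17 (SE), with a 95% interval of -0.56 to 0.11 and a limma adjusted p = 0.491. Its interval lies below those of the 5 genes that rose. With 1 array left out the value ran from -0.41 to -0.04 and never passed. The receptor genes Il10ra and Il10rb did not pass, with limma adjusted p-values of 0.930 and 0.241.

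Fgl2 had intensities of 489 and 451 in CYLD KO cells, against 303 and 264 in WT cells. The groups did not overlap, and on the linear scale the replicates lay about as far apart in one group as in the other. The log2 fold change was 0.73 ± 0.17 (SE), with a 95% interval of 0.40 to 1.06 and a limma adjusted p = 5.89e-04. Without WT replicate 2 it was 0.63, with an adjusted p = 0.143. Tigit, an inhibitory receptor known to induce Fgl2 in mouse Treg cells, had 1854 and 1591 in CYLD KO cells and 991 and 898 in WT cells (log2 fold change 0.86, limma adjusted p = 1.96e-05). Of the other fibrinogen-related genes, 5 were tested, 1 was lower and 0 higher (0 higher at an unadjusted p under 0.05). The lower one was Fcna, a ficolin of macrophages, with 59.0 and 79.0 in CYLD KO cells and 119 and 92.5 in WT cells (log2 fold change -0.61, limma adjusted p = 0.00636), and it did not pass without CYLD KO replicate 1 or WT replicate 1. The knockout mean of Fcna lay under the filter, so it was tested only through its WT level, and its fold is a rough value. Fcgr3, which encodes an Fc gamma receptor, had 83.1 and 73.0 in CYLD KO cells and 102 and 108 in WT cells and did not pass (limma adjusted p = 0.111).

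**Figure D2:**
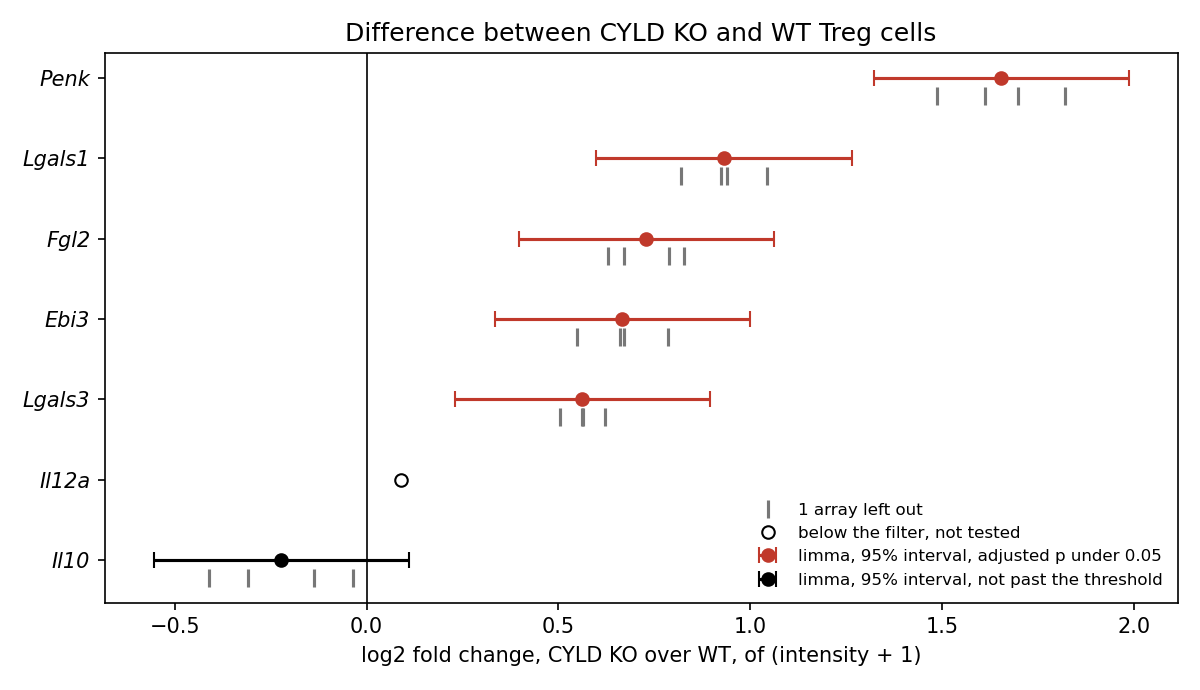
Log2 fold change of (intensity + 1), CYLD KO over WT, with 95% intervals from limma for the 6 tested genes; the open circle is Il12a, which was below the filter, and grey ticks are the values with 1 array left out (4 per tested gene). The intervals of Penk, Lgals1, Fgl2, Ebi3 and Lgals3 lie above 0 and that of Il10 spans it.

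The EGF family, to which amphiregulin belongs, showed no call. Of the 8 other EGF family ligands 4 lay below the filter, and whether these changed was not tested. The other 4 were tested and 0 passed in limma (0 at an unadjusted p under 0.05). Tgfa had intensities of 136 and 138 in CYLD KO cells and 138 and 173 in WT cells. Of 5 tested EGF receptor family and shedding genes 0 passed (0 at an unadjusted p under 0.05). Adam10, a related shedding protease, had intensities of 709 and 685 in CYLD KO cells and 656 and 658 in WT cells (limma adjusted p = 0.830). Adam17, the protease that releases amphiregulin from the cell surface, had 387 and 373 in CYLD KO cells and 355 and 349 in WT cells (limma adjusted p = 0.771). Egfr lay below the filter.

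Transcription factors and receptors linked to IL-10 and to effector Treg mediators formed a list of 14 tested genes. Of these 8 were higher and 1 was lower (10 and 2 at an unadjusted p under 0.05). The median log2 fold change was 0.56. Bhlhe40, a transcription factor that represses Il10 in mouse helper T cells, had intensities of 1348 and 1222 in CYLD KO cells and 343 and 313 in WT cells (log2 fold change 1.97, limma adjusted p = 3.55e-28). Ahr, the aryl hydrocarbon receptor, which promotes Il10 in T cells, had 986 and 927 in CYLD KO cells and 492 and 460 in WT cells (log2 fold change 1.01, limma adjusted p = 2.90e-07). Bach2, a repressor that holds T cells in a resting state, had 360 and 355 in CYLD KO cells and 637 and 667 in WT cells (log2 fold change -0.87, limma adjusted p = 1.80e-05). Bhlhe40, Ahr, Bach2 and Tigit passed without each array in turn. The number of higher genes was 7 without CYLD KO replicate 2 and 4 without WT replicate 2.

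A list of 13 tested genes of tissue Treg cells and repair shared members with the list before, Batf and Nfil3 among them. Of the 13 genes 4 were higher and 0 lower (8 and 0 at an unadjusted p under 0.05). The median log2 fold change was 0.39. The calls of Batf and Nfil3 count in both lists, so the lists are not separate results. Itgae, the integrin alpha E chain, had intensities of 1896 and 1530 in CYLD KO cells and 717 and 758 in WT cells (log2 fold change 1.21, limma adjusted p = 2.06e-10). Ccr8, a chemokine receptor of tissue Treg cells, and Batf and Nfil3, transcription factors of effector Treg cells, were the others, with log2 fold changes of 1.18, 0.85 and 0.53; Nfil3 passed only without CYLD KO replicate 2 when 1 array was left out. Without that array 6 genes were higher.

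Of 15 tested genes for other suppressive mechanisms 4 were higher and 0 lower (5 and 2 at an unadjusted p under 0.05), with a median log2 fold change of 0.09. Besides Tigit these were Havcr2, the gene of the inhibitory receptor TIM-3 (log2 fold change 1.20), Itgb8, an integrin chain that activates latent TGF-beta (0.80), and Gzmb, which encodes granzyme B (0.63, not past the threshold without either WT array or CYLD KO replicate 1). Tgfb1, the TGF-beta1 gene, which was chosen for mention after its value was seen, had intensities of 1427 and 1602 in CYLD KO cells and 1373 and 1353 in WT cells and did not pass (limma adjusted p = 0.673).

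**Figure D3:**
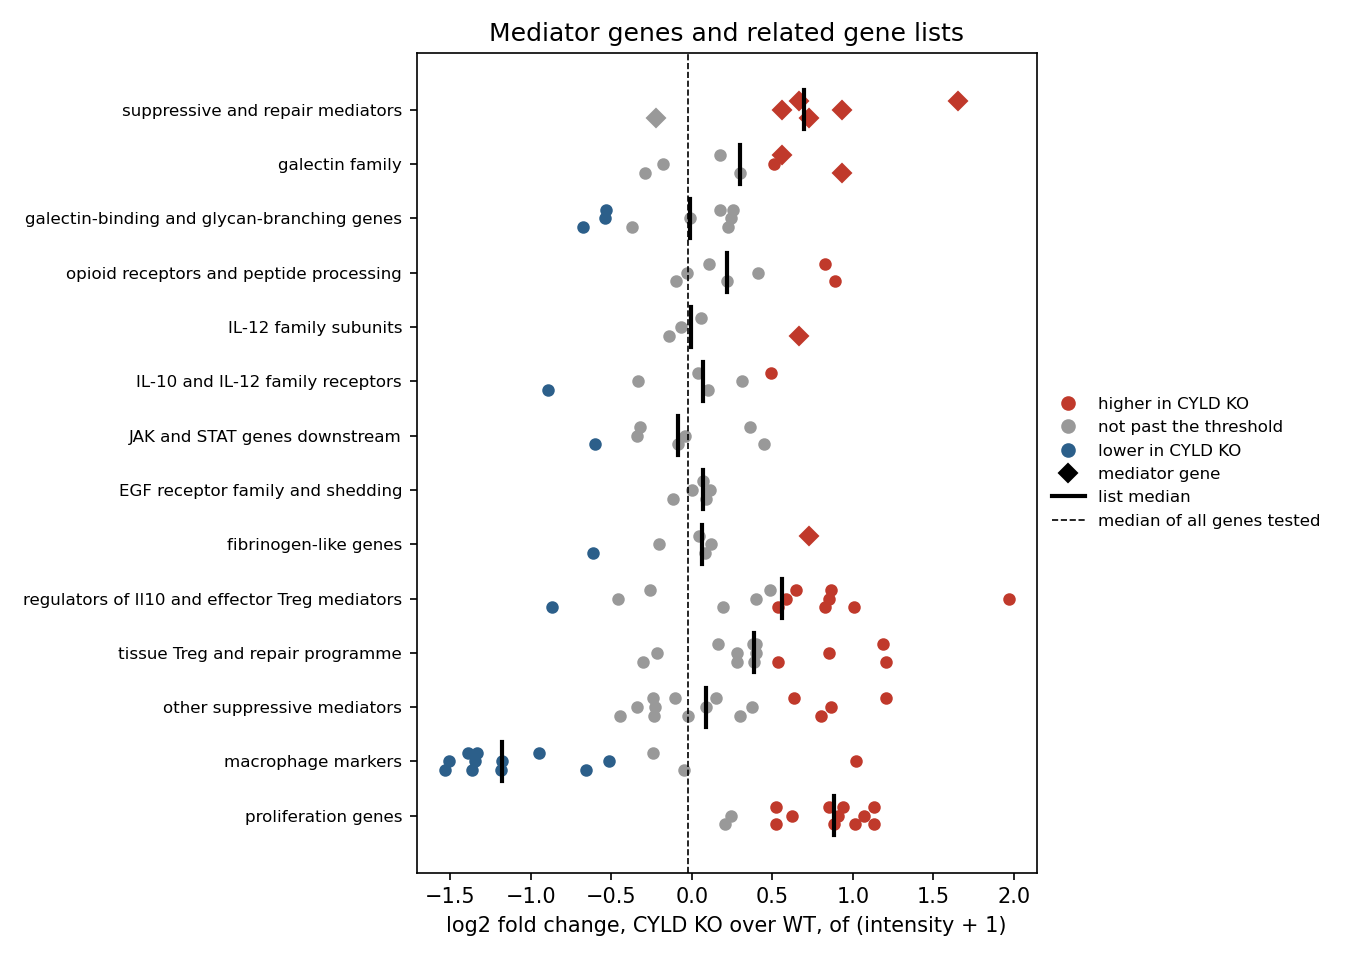
Log2 fold change of (intensity + 1), CYLD KO over WT, of each tested gene in the mediator set and in 13 related lists; red and blue points are past the threshold, grey points are not, diamonds are mediator genes, thick bars are list medians and the dashed line is the median of all tested genes (-0.02). The mediator median is 0.70, that of the regulator list 0.56 and that of the macrophage markers -1.18.

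Other cells can also make these mediators, macrophages among them for Lgals3, Fgl2 and Il10. Of 16 macrophage markers 14 were tested, 11 were lower and 1 was higher, with summed intensities of 3322 to 3786 in the knockout and 4090 to 4261 in WT. Without Axl, the member that was higher, the sums were 1403 to 1725 in the knockout and 3091 to 3298 in WT. The knockout means of 5 of the 11 lower genes lay under the filter, so these were tested only through their WT level. C1qb, a complement gene of tissue macrophages, had 78.7 and 95.3 in CYLD KO cells and 292 and 219 in WT cells. Axl, a receptor kinase, had 1919 and 2061 in CYLD KO cells and 963 and 999 in WT cells. In the marker lists of dendritic, B, plasma and granulocytic cells 0 genes passed in limma (1, the B cell gene Cd79b, at an unadjusted p under 0.05, being lower). In the CD8 T and NK cell list 1 of 4 tested genes was higher, Eomes, with 297 and 342 in CYLD KO cells and 109 and 98.9 in WT cells, while Cd8b1 had 469 and 426 in CYLD KO cells and 362 and 405 in WT cells, separate groups that did not pass (limma adjusted p = 0.491), and Cd8a had 120 and 92.5 in CYLD KO cells and 101 and 95.3 in WT cells. Of 13 tested proliferation genes 11 were higher (5 without CYLD KO replicate 2) and 0 lower (0 at an unadjusted p under 0.05). The part of these cell populations and of cycling cells in the mediator differences was not tested. In bulk samples more cells that make a transcript and more transcript per cell cannot be told apart.

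The genes whose pattern over the 4 arrays was most like that of each risen mediator were taken by Euclidean distance between log2 values centred on each gene's mean; such likeness over 4 arrays is a description. For Penk they were Adam8, Dnase1l3 and Susd2, at distances of 0.177, 0.213 and 0.213. Adam8, a membrane metalloprotease, had intensities of 664 and 457 in CYLD KO cells and 172 and 166 in WT cells. For Lgals1 they were Car5b, Plxdc1 and Melk, for Lgals3 Ei24, Ehd4 and Ckap5, and for Fgl2 S100a6, Gna15 and Inf2. For Ebi3 they were AW112010, Icam1 and Cldnd1, at distances of 0.0214 to 0.0273. Icam1, an adhesion molecule, had 546 and 469 in CYLD KO cells and 311 and 316 in WT cells.

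The calls depend on pooling the variance over genes. The prior degrees of freedom were infinite, so 1 standard error applies to every gene, and small adjusted p-values do not measure replication. Fitted with no pooling, limma's linear model called 0 of the 6 mediator genes (adjusted p from 0.273 to 0.337 for the 5 that rose, whose unadjusted p ran from 0.0104 to 0.0301) and 0 of all genes (1814 at an unadjusted p under 0.05). An exact permutation test of 2 arrays against 2 cannot give a two-sided p below 0.333. Across all tested genes the groups did not overlap in 48.7%, and both CYLD KO arrays were above both WT arrays in 22.5% and below them in 26.2%, against 5 and 0 of the 6 mediator genes.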

How the data were processed

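Total RNA of YFP+ Treg cells was measured on 4 arrays, 2 per genotype. Per the labels' protocols, biotinylated cRNA was made as Affymetrix prescribes. The authors deposited 1 linear intensity for each probe set on each array, a unit read from the values; their summarisation and scaling are not given in the sources used here. No detection call came with them, so background in the signal understates folds of dim genes.

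Names came from the platform annotation of 2016: of 35557, 21789 had exactly 1 symbol, 1621 had several and 12147 had none listed. Intensities as deposited were converted to log2(value + 1). Genes whose mean log2 intensity exceeded the 30th percentile (6.29) were kept, and CYLD KO was compared with WT by lmFit and eBayes of limma 3.58.1 in R 4.3.3, with 2 residual degrees of freedom per gene, with Benjamini-Hochberg adjustment over all 13956 genes and a threshold of 0.05. The test was first tried on simulated data in which every gene had the same spread. That trial therefore could not check the pooling of variances on which the calls depend.

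The mediator genes and related lists were chosen with earlier results of these data known. Besides the mediator genes and Cyld, the text names up to 4 genes of each list. Called genes with the largest change came first, and otherwise the brightest. The 3 nearest patterns of each called mediator are named too. Further names (Kdm5d, Xist, Eif2s3y, Uty, Foxp3, Il2ra, Lgals8, Il10ra, Egfr, Axl and Tgfb1) were added after their values were seen. Alternatives covered the filter, scaling, pseudocount, variance model, array weights, probe sets, replicate block, threshold and leaving out each array. Counts of related lists without single arrays or without pooling were added after the data were seen.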

Additional observations from a re-analysis of the deposited data

How the results depend on the processing

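Each of the 5 risen mediator genes stayed higher in CYLD KO cells, and Il10 stayed negative without passing, under all 18 alternatives. Changes of filter, variance model, weights, probe sets, block or threshold left the log2 fold change as it was, so they could not alter the direction. Leaving out 1 array could not reverse it for the 5 genes either, because their groups do not overlap. The size ran from 0.55 to 0.78 for Ebi3, 0.63 to 0.83 for Fgl2 and 0.82 to 1.04 for Lgals1 on the log2 scale. It ran from 0.50 to 0.62 for Lgals3 and from 1.49 to 1.82 for Penk. Leaving out 1 array, the number of mediator genes called higher ran from 2 (without WT replicate 2) to 5, the number called lower was 0, and over all genes 252 to 918 were called higher and 118 to 767 lower, against 669 and 489 with all arrays; in these fits the lone array of a group is assumed to vary like the other group. With no pooling of variances 0 mediator genes and 0 genes in all were called in either direction (1814 at an unadjusted p under 0.05). At an adjusted p under 0.01, 277 genes were lower, and Lgals3 was no longer called. With the replicate number as a block 5 mediator genes, 603 genes higher and 429 lower were called. The deviations of same-numbered arrays correlated at -0.0923 over genes. With 1 difference between replicates in each group, this value cannot tell whether same-numbered arrays were paired. Il12a entered only the fits with no filter. No depth can be given for arrays; background without a detection call limits Il12a and other dim genes most.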
